A study of Rattus norvegicus with 64 samples.

Results

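Kidney-raised transcripts are here the 138, of the 28420 transcripts listed for rat liver and kidney, that were higher after acetaminophen in kidney at 5 h and met limits on change in liver. They were chosen by measured values. Each library's estimated read counts were divided by their sum and scaled to CPM (counts per 1e6 counts), and ratios were taken between the median CPM of acetaminophen and vehicle groups with 0.5 CPM added to both. A transcript was kept when its kidney 5 h ratio was at least 1.5, its median in acetaminophen kidney at 5 h was at least 1 CPM, and at least 7 of the 8 acetaminophen libraries lay above the vehicle median. In liver, both acetaminophen ratios had to lie between 0.67 and 1.5, and the 10 h over 5 h ratio of vehicle liver between 0.57 and 1.75. The kidney 10 h libraries took no part in the choice, so their comparison is the only one of the acetaminophen effect that is tested below.

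The study used 32 Sprague Dawley rats and sequenced liver and kidney RNA, in 64 libraries that fall into 8 groups of 8. The acetaminophen groups received 1 dose of 2 g/kg and the vehicle groups 6 ml/kg of 50% polyethylene glycol, and tissue was taken at 5 h or at 10 h. Each rat gave tissue at 1 time, so the kidneys at 5 h and at 10 h came from different rats. Sex, age, feeding and sequencing batch are not given in the sources used here, and whole-tissue RNA was measured.

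Acetaminophen is an analgesic that is cleared mainly by glucuronidation and sulfation in the liver. A part is oxidised by cytochrome P450 enzymes to a reactive quinone imine, which glutathione traps and which binds proteins once glutathione is depleted. The liver is the main target of an overdose, and the kidney, whose tubule cells also hold oxidising and prostaglandin-forming enzymes, can be injured as well. In whole-tissue RNA, a change in the number of cells of a type and a change in the RNA per cell cannot be told apart.

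The files identify transcripts by Ensembl identifiers, and 0 of the 28420 occur in the reference tables used here. Gene names, pathways, cell type markers and sequences are therefore not given, and transcripts are described by annotated length, level and pattern. The tissue labels could not be checked against named markers. A set of 433 liver-enriched transcripts was taken by mean TPM (an abundance scaled to transcript length and library size). They had at least 1 TPM in vehicle liver at 10 h. With 0.01 TPM added, they were at least 16 times higher there than in vehicle kidney at 10 h. These 433 held 46.1% to 51.6% of the counts in liver libraries. In kidney libraries they held 0.171% to 0.903%. Total estimated counts ran from 18039111 to 26148119 per kidney library and from 21467448 to 29496773 per liver library, so 1 CPM stood for 18 to 26 counts in kidney.

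In kidney at 5 h, where the transcripts were chosen, most of the ratios were modest. The median kidney 5 h ratio was 1.75, the quartiles were 1.59 and 2.01, and the highest value was 17.4. The ratio was at least 2 for 35 transcripts and at least 3 for 12. All 8 acetaminophen libraries lay above the vehicle median for 68 of the 138 and exactly 7 for the other 70. The libraries of the 2 groups did not overlap at all for 9. The choice of members favours such a count, and the share over all transcripts is not given. These values chose the members and are a description. The vehicle kidneys differed by time as well: the ratio of vehicle medians, 10 h over 5 h with 0.5 CPM added, was above 1 for 121 of the 138, with a median of 1.28 and 38 members at 1.5 or more. Of the transcripts with at least 1 CPM in acetaminophen kidney at 5 h, 55.0% were above 1, with a median of 1.01. The vehicle 5 h medians are the denominators of the ratios that chose the members, so low values there favour membership, and the rule had no limit on vehicle time in kidney.

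The set has no natural edge at its lower limit. The 3 transcripts just inside had ratios of 1.501, 1.505 and 1.505, and the 3 just outside, which met every other condition, had 1.498, 1.496 and 1.496. In all, 36 members lay between 1.5 and 1.6, and 57 other transcripts met every other condition with a ratio between 1.4 and 1.5.

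Most of the members were transcripts of low abundance. Their median level in acetaminophen kidney at 5 h was 5.57 CPM, against 2.52 CPM in vehicle kidney at 5 h. Of the 138, 88 were under 10 CPM in that acetaminophen group, 40 between 10 and 100 CPM, and 10 at 100 CPM or above. Annotated length was close to that of the 14958 transcripts with at least 1 CPM in the same group, with a median of 2111 bases (321 to 10110) against 2048. The members include a pair of 2717 bases and a pair of 678 bases, with equal group medians within each pair. Both transcripts of such a pair are counted as members, so the counts and shares here include repeated values.

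Many of the members were hardly present in liver. The median level was under 0.5 CPM in all 4 liver groups for 79 of the 138, a share of 57.2%. Of the 14958 transcripts with at least 1 CPM in acetaminophen kidney at 5 h, 11.7% were this low in liver. For 22 members the median was 0 in all 4 liver groups. With 0.5 CPM added to both medians, ratios at such levels are drawn towards 1, and where both medians are 0 the ratio is 1. For these 79 a liver ratio near 1 therefore says little about whether liver responded.

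The other 59 members were present in liver, 19 of them at 10 CPM or more in all 4 liver groups. Their liver ratios lay within the limits of the rule but leaned upward at 5 h, with a median of 1.15 at 5 h and 1.03 at 10 h. At 5 h, 21 of these 59 had a liver ratio over 1.3. The name "not raised in liver" therefore means a liver ratio under 1.5, and not the absence of a liver change.

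By length-scaled level, the members were more often kidney transcripts than liver transcripts. In vehicle tissue at 10 h, 61 of the 138 had a mean TPM at least 16 times higher in kidney than in liver, with 0.01 TPM added. That share is 44.2%, against 12.8% of the transcripts with at least 1 CPM in acetaminophen kidney at 5 h. The liver values entered the rule, and its liver limits are more easily met near 0 CPM, so the choice of members itself favours this excess. The reverse held for 5 members, which were at least 16 times higher in liver, and 17 members were within 2-fold of each other in the 2 tissues.

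**Figure D1:**
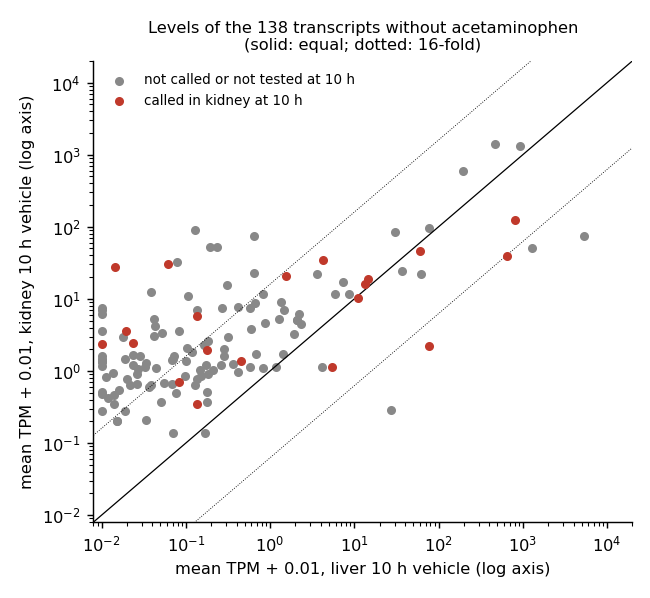
Mean TPM (0.01 added, n = 8 libraries per tissue) of each of the 138 transcripts in vehicle liver at 10 h (x axis, log) and vehicle kidney at 10 h (y axis, log). Red points are the 20 transcripts called in kidney at 10 h; 61 points lie above the upper dotted 16-fold line and 5 below the lower one.

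Each acetaminophen kidney was compared with the vehicle kidneys of its time by the median, over the 138 transcripts, of the log2 ratio of its CPM to the vehicle median. At 5 h this value ran from 0.48 to 1.10, with a mean of 0.82 ± 0.20 (SD, n = 8). The rule set it high, but not equally in every rat: replicate 2 was highest of its group for 40 of the 138 transcripts and replicate 6 for 3. In the 8 acetaminophen kidneys at 10 h, which the rule did not use, the value ran from 0.15 to 0.42, with a mean of 0.23 ± 0.091 (SD, n = 8). The 8 vehicle kidneys at 10 h ran from -0.03 to 0.04, so the 2 groups did not overlap, although vehicle libraries lie near 0 by construction. No test is given for a score over members.

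**Figure D2:**
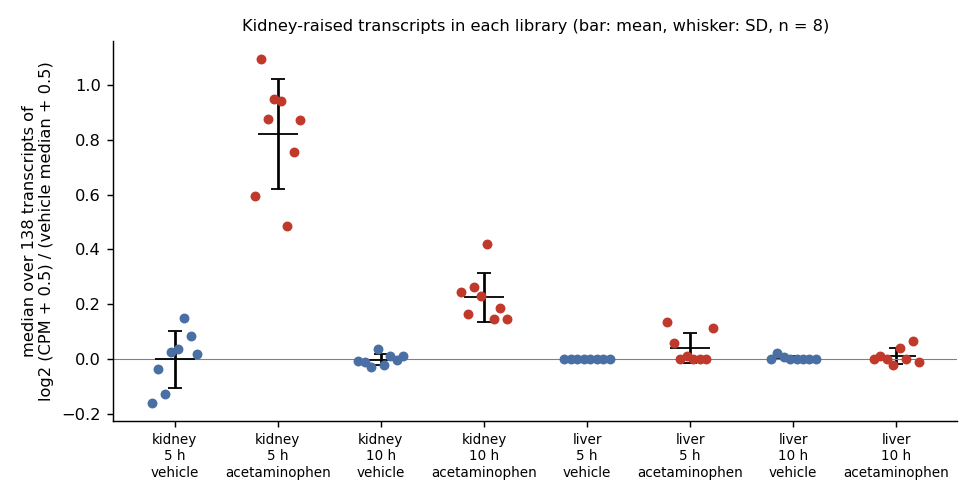
Median over the 138 transcripts of log2 (CPM + 0.5) over (vehicle median + 0.5) of the same tissue and time, in each of the 64 libraries (points), with the mean (bar) and SD (whisker) of 8 libraries. Kidney at 5 h and all liver groups entered the rule; in kidney at 10 h the acetaminophen libraries lie between 0.15 and 0.42 and the vehicle libraries between -0.03 and 0.04.

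Replicate 8 of acetaminophen kidney at 5 h stood apart in liver-enriched transcripts. The 433 liver-enriched transcripts held 0.903% of its counts, 0.447% of replicate 3, and 0.180% to 0.226% of the other 6. Vehicle kidneys at 5 h held 0.171% to 0.354%. Replicate 8 was library number 68, next to liver libraries 65 to 67, while all other kidney libraries were numbered from 33 to 64. Any link between library number and this share was not tested. Without replicate 8 the kidney 5 h ratio of 125 of the 138 stayed at 1.5 or more. Applied again, with the required number of libraries above the vehicle median lowered accordingly, the rule gave 160 transcripts. Of these, 124 were among the 138. Without replicates 3 and 8, a choice made after the data were seen, 122 of the 138 stayed at 1.5 or more. For the 5 liver-enriched members, ratios of 1.55 to 3.48 became 1.37 to 3.72 without both, and 4 of them stayed at 1.5 or more. At 10 h the groups overlapped in this share, at 0.183% to 0.259% with acetaminophen and 0.196% to 0.279% with vehicle. The 433 were defined in part by low levels in these 10 h vehicle kidneys, so the vehicle side was not independent of that choice.

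In kidney at 10 h, 19 of the 133 kidney-raised transcripts that could be tested were higher with acetaminophen and 1 was lower. The test was edgeR's quasi-likelihood test on the 16 kidney 10 h libraries, with p-values adjusted by Benjamini and Hochberg's method across the 16538 transcripts that passed the filter and calls made below 0.05. The 19 are 14.3% of the members tested, against a background of 1.27% of all transcripts called higher. The 1 lower member is 0.752%, against a background of 1.19% called lower. The other 113 members tested did not pass, and 5 members fell below the filter on low counts.

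The shift was small for most members. The median fitted log2 change of the 133 was 0.30, with quartiles of 0.06 and 0.57, and the median over all 16538 was -0.0014. The fitted change was above 0 for 105 of the 133, or 78.9%, against 49.6% of all transcripts tested. By the ratio of medians, 29 of the 133 were at 1.5 or more, or 21.8%, against a background of 2.12%. At 0.67 or less stood 3 of the 133, a share of 2.26% that is close to the background of 2.28%.

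The count of calls changed when single libraries were left out and when both the tool and the unit were replaced. Leaving out 1 of the 16 libraries in turn gave 11 to 24 called members. It fell to 13 or fewer without vehicle replicate 1 (12), 3 (11), 4 (13), 6 (12), 7 (12) or 8 (13), or without acetaminophen replicate 3 (12), 4 (13) or 5 (13). In these refits the share of members called higher ran from 7.46% to 17%, and that of all transcripts from 0.588% to 1.99%. With limma on log2(TPM + 1), 10 members rose and 1 fell, while over all transcripts 85 rose and 218 fell, against 210 and 197 in the edgeR fit.

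**Figure D3:**
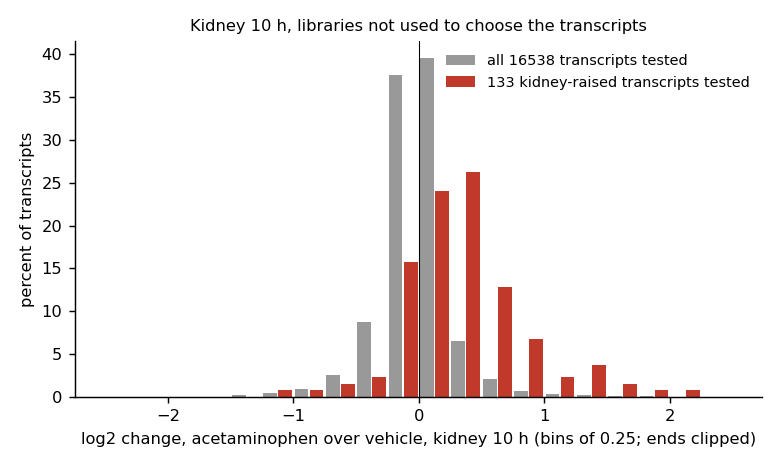
Percent of transcripts (y axis) by fitted log2 change, acetaminophen over vehicle, in kidney at 10 h (x axis, bins of 0.25), for the 133 kidney-raised transcripts tested (red) and all 16538 tested (grey). The medians are 0.30 and -0.0014.

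The 19 transcripts that rose spanned a wide range of level and size of change. Their log2 changes ran from 0.25 to 1.63, with a median of 0.84, and 8 of them at least doubled on this scale (a log2 change of 1 or more). Their median levels with acetaminophen at 10 h ran from 1.01 to 272 CPM. For 11 of the 19, all 8 acetaminophen libraries lay above the vehicle mean. Of the 19, 8 were among the members under 0.5 CPM in all liver groups (of 74 tested) and 11 among the others (of 59 tested). The difference between these shares was not tested.

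For 3 of the 19, all 8 acetaminophen libraries lay above all 8 vehicle libraries at 10 h, or 2.26% of the members tested against a background of 0.2%. No member had all 8 below, where the background is 0.284%. These 3 are described after their values were seen, by length. The clearest is a transcript of 1868 bases. At 10 h its vehicle libraries ran from 46.4 to 71.2 CPM (median 57.3) and its acetaminophen libraries from 86.6 to 168 CPM (median 137). The log2 change was 1.17 ± 0.12 (SE, n = 8 and 8; edgeR adjusted p = 0.000192). At 5 h it had 36.5 to 80.5 CPM with vehicle and 79.4 to 207 CPM with acetaminophen, so its kidney medians were nearly the same at both times. All its estimated counts were whole numbers. In liver its ratio was 1.47 at 5 h, just under the limit of the rule, with medians of 10.9 CPM with vehicle and 16.2 CPM with acetaminophen.

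A transcript of 1071 bases had 80.5 to 144 CPM in vehicle kidney at 10 h (median 108) and 153 to 356 CPM with acetaminophen (median 272). Its log2 change was 1.25 ± 0.15 (SE, n = 8 and 8; edgeR adjusted p = 0.000826). It was more abundant in liver, where its group medians ran from 744 to 1020 CPM. Its estimated counts were not whole in any library, so part of its reads was shared with other transcripts and its level rests on how kallisto divided them.

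The third, of 3509 bases, changed less. It ran from 3.83 to 5.52 CPM with vehicle and from 5.66 to 8.76 CPM with acetaminophen at 10 h, a log2 change of 0.57 ± 0.11 (SE, n = 8 and 8; edgeR adjusted p = 0.0111).

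Of the 5 liver-enriched members, 2 were called higher at 10 h, both chosen for mention after their values were seen. Of all transcripts tested, 1.27% were called higher. The share among the 433 liver-enriched transcripts is not given, and 5 members are too few to read as a result about them. The one of 1236 bases ran from 28.6 to 58.9 CPM with vehicle and from 44.9 to 143 CPM with acetaminophen, and its groups overlapped. Its log2 change was 1.29 ± 0.20 (SE, n = 8 and 8; edgeR adjusted p = 0.00359). The other, of 1769 bases, had a log2 change of 0.70 ± 0.17 (SE, n = 8 and 8; edgeR adjusted p = 0.0361). Both were read-sharing transcripts, with estimated counts that were not whole in 93.8% and 100% of libraries. The part of liver RNA in kidney libraries in these results was not tested.

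Of the 19, 4 had estimated counts that were not whole in at least 32 of the 64 libraries; among all 138 members this was 45.

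**Figure D4:**
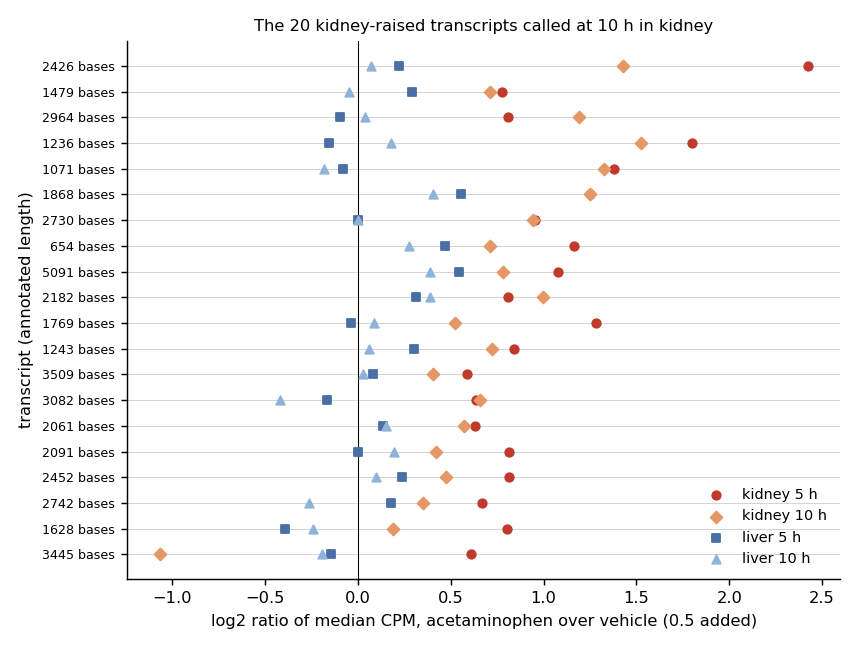
Log2 ratio of median CPM, acetaminophen over vehicle with 0.5 CPM added (x axis), for the 20 members called in kidney at 10 h, listed by annotated length (y axis), in kidney at 5 h and 10 h and in liver at 5 h and 10 h. The kidney 5 h and liver ratios entered the rule; the transcript of 3445 bases is the only one of the 20 with a kidney 10 h ratio below 1.

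Identifiers are given for 4 members, chosen by rule: among members averaging 1 or more in log2 CPM, the 2 largest called rises in which every acetaminophen library exceeded the vehicle mean, and the 2 lowest fitted changes.

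ENSRNOT00000072176 (2426 bases) had the largest fitted rise among the called members; larger fitted values of members that missed the threshold reached 2.16. In vehicle kidney at 10 h it ran from 0.313 to 3.67 CPM (median 1.55), and with acetaminophen from 2.09 to 8.60 CPM (median 5.01). All 8 acetaminophen libraries lay above the vehicle mean, and 6 above the highest vehicle library. The log2 change was 1.63 ± 0.38 (SE, n = 8 and 8; edgeR adjusted p = 0.0328). At 5 h, 6 vehicle libraries were at 0.475 to 1.09 CPM and 2 at 5.87 and 11.5 CPM, while acetaminophen libraries ran from 3.74 to 11.8 CPM. Its call at 10 h was near the threshold. It was lost when all 32 kidney libraries were fitted together (adjusted p = 0.123), and without vehicle replicate 1, 3, 6 or 7 or acetaminophen replicate 3, 4, 5, 7 or 8, where edgeR's adjusted p ran from 0.0521 to 0.0646 and the log2 change from 1.47 to 1.64.

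ENSRNOT00000029876 (2964 bases) was almost absent from liver, at no more than 0.215 CPM in any library. In vehicle kidney at 10 h it ran from 4.55 to 9.49 CPM (median 6.83), and with acetaminophen from 8.50 to 33 CPM (median 16.3). Of the acetaminophen libraries, 7 lay above the highest vehicle library. The log2 change was 1.47 ± 0.26 (SE, n = 8 and 8; edgeR adjusted p = 0.00624). At 5 h the groups overlapped more widely, with 3.20 to 20.7 CPM in vehicle and 9.19 to 36.4 CPM in acetaminophen kidney.

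ENSRNOT00000011906 (3445 bases) was the only member called lower at 10 h. Vehicle libraries ran from 9.59 to 31.0 CPM (median 18.6) and acetaminophen libraries from 4.66 to 12.3 CPM (median 8.62). All 8 acetaminophen libraries lay below the vehicle mean, and 5 below the lowest vehicle library. The log2 change was -1.13 ± 0.23 (SE, n = 8 and 8; edgeR adjusted p = 0.0144). At 5 h, where it was chosen, its medians were 14.1 CPM with vehicle and 21.7 CPM with acetaminophen, a ratio of 1.52. The 5 h groups overlapped widely. Vehicle libraries, at 10.99 to 26.75 CPM, lay inside the range of acetaminophen libraries, 10.69 to 27.28 CPM. Only the ratios of medians at the 2 times thus stood on opposite sides of 1. The 5 h value chose the transcript, and the difference between the times was not tested.

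ENSRNOT00000025631 (780 bases) was not called, and had the lowest change among the uncalled members that average 1 or more in log2 CPM. It ran from 1.14 to 12.5 CPM with vehicle and from 0.705 to 5.49 CPM with acetaminophen, and the groups overlapped. The log2 change was -0.62 ± 0.49 (SE, n = 8 and 8; edgeR adjusted p = 0.624). Without vehicle replicate 2, the library at 12.5 CPM, the log2 change was -0.12. The estimated counts of this transcript were not whole in any kidney library, so its kidney level rests on how kallisto divided shared reads.

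**Figure D5:**
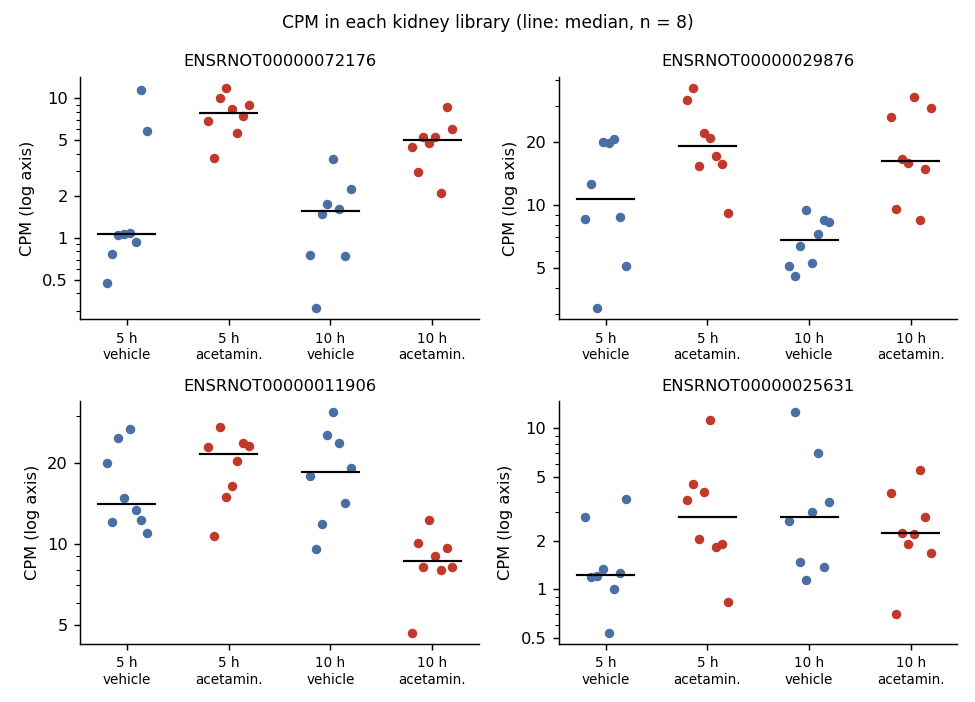
CPM (y axis, log) of the 4 identified members in each kidney library (points) by time and agent (x axis), with the group median (line, n = 8). The 5 h values entered the rule. At 10 h the medians of the first 2 are higher with acetaminophen and that of the third is lower, and the fourth was not called. The 10 h groups overlap to some extent in all 4.

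The most abundant member, a transcript of 2634 bases, carried a large part of the summed level. In kidney at 5 h it ran from 1382 to 8218 CPM with vehicle (median 1956) and from 2191 to 5069 CPM with acetaminophen (median 3369). The highest of these libraries was thus a vehicle library. At 10 h it ran from 2069 to 4184 CPM with vehicle and from 3860 to 4682 CPM with acetaminophen, and the groups overlapped. It was also abundant in liver, with group medians from 1738 to 2881 CPM, and was not called at 10 h.

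The member with the largest kidney 5 h ratio was a transcript of 3983 bases. By its estimated counts it was either nearly absent or clearly present in single rats of every kidney group. In vehicle kidney at 5 h it was under 0.1 CPM in 5 rats and at 8.13, 8.35 and 9.27 CPM in the other 3. With acetaminophen at 5 h it was under 0.1 CPM in 3 rats and at 7.81 to 21.3 CPM in 5. At 10 h it was under 0.1 CPM in 5 vehicle and 4 acetaminophen rats. Its 5 h medians, 0.035 CPM with vehicle and 8.78 CPM with acetaminophen, fell on different sides of this split. It was among the 5 members below the filter at 10 h. Its estimated counts were not whole in any library, so its level in each rat rests on how kallisto divided shared reads.

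The members with the largest 5 h ratios were not all called at 10 h. Of the 12 members with a ratio of at least 3, 10 were tested at 10 h and 2 were called higher. Their 10 h ratios of medians ran from 0.436 to 8.16, with a median of 2.02. Across the 133 members tested, the log2 ratio at 5 h and the fitted log2 change at 10 h had a Pearson r of 0.38 and a Spearman rho of 0.18. This is across transcripts that share libraries, and transcripts are not independent replicates.

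Transcripts that met the kidney conditions but missed the liver limits were also called higher in kidney at 10 h. The kidney conditions alone were met by 244 transcripts. Of these, 76 had a liver ratio of at least 1.5 at 5 h or at 10 h, and 10 of the 73 of them tested were called higher in kidney at 10 h, or 13.7%, with a median log2 change of 0.19. A further 26 had a liver ratio of 0.67 or less, and 4 of the 25 tested were called higher, or 16%. The 14.3% of the kidney-raised set lies between these shares, and the differences were not tested.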

How the data were processed

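Each library's deposited table lists, for every transcript, the estimated count and the TPM that the authors obtained. The submitters' processing notes name kallisto 0.42.4 and the build Rnor 6.0. Per the labels' protocols, libraries were stranded, from poly-A RNA; their extraction step mentions cells in culture, although every sample is labelled as tissue. The estimated counts as deposited are not normalized; the deposited TPM are scaled to length and library. Reads shared by transcripts are divided by kallisto's model, and that uncertainty, and overlap with antisense transcripts, was not assessed.

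CPM and the rule were computed from the estimated counts. The kidney 10 h counts were rounded, and edgeR 4.0.16 (R 4.3.3) was applied (filterByExpr, TMM scaling, glmQLFit and glmQLFTest, two-sided, Benjamini-Hochberg over 16538 transcripts). Only these 16 libraries were fitted, so that no library used by the rule entered. The liver 10 h libraries, which the rule used, come from the same rats. The fit was tested on simulated data. Alternatives used DESeq2 1.42.0, limma 3.58.1 on log2 TPM, other filters and scalings, and each library left out.

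Groups follow the tissue, agent and time labels. Replicates are separate rats, per the series' design text, and any pair in a group differed by more than sampling noise (chi-square per degree of freedom of at least 14). The 4 identified transcripts follow the rule given with them. Planned gene lists and markers could not be run without gene names. The members and lists were chosen with earlier results of these data known.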

Additional observations from a re-analysis of the deposited data

Results flagged for a closer look

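Of 25 groups of 8 libraries examined for a library far from the others, 2 held one; chance gives about 1 in 20. The summed CPM of the 138 kidney-raised transcripts in vehicle kidney at 5 h was 10629 in replicate 8, against 5417 in the next library. The most abundant member alone was 8218 CPM there. Without that member replicate 8 lay inside the range of its group, 1748 to 2425 CPM. ENSRNOT00000025631 was at 11.2 CPM in replicate 5 of acetaminophen kidney at 5 h, against 4.52 CPM in the next library.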

How the results depend on the processing

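The number of members called in kidney at 10 h was 20 in the edgeR fit. It was 13 with no filter on low counts, where more transcripts share the adjustment, and 11 with limma on log2(TPM + 1) or on log2(TPM + 0.1). It was 20 with DESeq2 size factors, 26 with DESeq2, 14 with all 32 kidney libraries, and 11 to 24 with 1 library left out. Members called higher made up 18.8% of those tested with DESeq2, against 2.45% of all transcripts tested. The shares were 8.7% against 0.532% with no filter, and 9.42% against 0.694% with all 32 kidney libraries. They were 7.52% against 0.514% with limma on log2(TPM + 1), and 14.3% against 1.27% in the edgeR fit. The median log2 change of the members was 0.16 with limma on log2(TPM + 1), and 0.26 to 0.34 with 1 library left out. The same 1 member was lower in each of these fits. Of the 4 identified transcripts, ENSRNOT00000072176 lost its call in 10 of 22 alternatives, and the other 3 kept their side of the threshold and their direction in all 22. For the calls lost with 1 library left out or with limma on TPM, which changes tool and unit together, the cause was not tested.

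The rule gave 138 transcripts. With a kidney 5 h ratio of at least 2 it gave 35, of which 7 of the 30 tested were called higher at 10 h, or 23.3%. With TMM-scaled CPM it gave 142, with TPM 134 (92 shared), and with 0.1 or 1 CPM added 124 and 122. Without the libraries numbered 65 to 68, which include replicate 8 of acetaminophen kidney at 5 h, it gave 160. With 1 kidney 5 h library left out it gave 131 to 179. Without replicates 3 and 8 of acetaminophen kidney at 5 h, chosen after seeing the data, it gave 206 (119 shared). Each acetaminophen kidney 5 h library left out also lowered by 1 the number required above the vehicle median. These counts thus reflect a changed condition as well as the missing libraries. With 1 library left out, 12.1% to 14.6% of those tested were called higher at 10 h. No paired analysis was possible because the labels give no replicate numbers and do not match the liver and kidney of a rat. Most members are of low abundance, and the median SE of their fitted log2 changes at 10 h was 0.25, so small changes could go undetected. The part of depth and of the spread between rats in this was not tested.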
